A study of Mus musculus with 20 samples.

Results

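The genes described are 10 enzymes that recover nucleosides and bases, or break them down, taken from a table of 56941 mouse genes. They are the rows that map to Upp1, Pnp, Ada, Cda, Tk1, Dck, Uck2, Hprt, Aprt and Xdh. All 10 were abundant enough to be tested among 13755 genes, Upp1 and Cda mainly through the groups where they are high. Upp1 was selected on its rise under interferon gamma (IFNγ) in wild-type cells. The other 9 were chosen by function, with earlier results of these libraries known. Values of that contrast are therefore given for all 10 genes as a description, with no test.

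Messenger RNA was sequenced from BV-2 cells, which are microglia of the mouse made immortal in culture, in 20 libraries of 4 groups with 5 biological replicates each. The groups were RGS10 knockout cells given IFNγ, RGS10 knockout cells given vehicle, wild-type cells given IFNγ and wild-type cells given vehicle. IFNγ was used at 10 ng/mL and vehicle was medium alone, both for 48 h. RGS10 is a regulator of G protein signalling that speeds up GTP hydrolysis by G protein alpha subunits; how the knockout was made, and whether it is 1 clone, is not given in the sources used here. Replicates 1 to 3 are labelled batch 1, replicate 4 batch 2 and replicate 5 batch 3.

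Cells make nucleotides either from small precursors, the de novo route, or by salvage of nucleosides and bases that come from RNA and DNA turnover or from outside the cell. Phosphorylases split a nucleoside into its base and ribose 1-phosphate, deaminases change the base, kinases add a phosphate to the intact nucleoside, and phosphoribosyltransferases attach a base to an activated ribose. Macrophages, the family microglia belong to, take up dying cells and the nucleic acids within them, and IFNγ is the classical signal that activates them and holds back their division.

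Totals ran from 15866749 to 29157740 counts per library. The knockout label was not matched by an absence of Rgs10 reads: Rgs10 stood at 15.5 to 50.5 CPM (counts scaled to a common library total) in knockout cells with IFNγ and 22.6 to 34.5 CPM in knockout cells with vehicle, against 22.2 to 49.9 CPM in wild-type cells with IFNγ and 55.0 to 73.0 CPM in wild-type cells with vehicle. Of 10 macrophage markers, 9 were at 1 CPM or more in every library. Of 18 markers of neurons, other glia, fibroblasts, endothelium and lymphocytes, 14 were under 1 CPM in every library, 4 of them with no read. The IFNγ libraries of batches 2 and 3 stood apart. Their level of the nuclear RNA Malat1, as CPM on plain library totals, was 1004 and 1446 in knockout cells and 955 and 1514 in wild-type cells. In batch 1 it was 55.95 to 62.7 in knockout cells and 355 to 386 in wild-type cells with IFNγ, and it was 51.4 to 166 in the vehicle libraries.

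The stretches before the transcription starts of 3 members are shown because these genes carry the main results: Upp1 had the largest IFNγ response of the 10, Pnp rose in knockout cells, and Ada had the largest called difference between the lines. Each is the 250 bases before an annotated start in RefSeq (GRCm38.p6, an older build than the GRCm39 named in the submitters' processing notes), written 5′ to 3′ on the gene's strand. Capitals mark a match to a motif that was searched for on both strands. They lie at chr11:9117758-9118007 on the plus strand for the first of 3 Upp1 starts, chr14:50944053-50944302 on the plus strand for Pnp and chr2:163750240-163750489 on the minus strand for Ada.
Upp1: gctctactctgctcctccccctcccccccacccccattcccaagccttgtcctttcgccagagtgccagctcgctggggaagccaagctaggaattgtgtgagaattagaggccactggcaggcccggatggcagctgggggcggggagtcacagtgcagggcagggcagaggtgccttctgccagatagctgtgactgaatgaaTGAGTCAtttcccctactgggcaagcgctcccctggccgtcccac
Pnp: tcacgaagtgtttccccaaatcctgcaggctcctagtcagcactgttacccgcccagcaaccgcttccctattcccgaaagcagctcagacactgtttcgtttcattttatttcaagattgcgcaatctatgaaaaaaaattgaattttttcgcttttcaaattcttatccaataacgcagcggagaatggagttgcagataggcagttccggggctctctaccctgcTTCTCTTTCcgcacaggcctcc
Ada: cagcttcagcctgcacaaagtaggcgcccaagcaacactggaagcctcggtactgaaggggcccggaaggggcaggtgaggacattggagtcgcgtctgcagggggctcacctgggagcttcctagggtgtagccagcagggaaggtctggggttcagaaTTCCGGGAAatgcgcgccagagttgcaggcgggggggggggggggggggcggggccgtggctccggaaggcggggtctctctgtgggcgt

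The motifs were TTCNNNGAA, the form of the IFNγ-activated GAS element, GAAANNGAA, a core of the interferon-stimulated response element, TTTCCCGC and TTTGGCGC, forms of E2F sites found before S phase genes, and TGANTCA, the form bound by AP-1. The AP-1 form was added after the sequences had been seen. Of 32851 mouse promoter windows of the same length, 7.02% held the GAS form, 7.13% the response element core, 0.895% and 0.417% the E2F forms and 6.75% the AP-1 form. Ada held TTCCGGGAA 90 to 82 bases before its start. Pnp held TTCTCTTTC, the response element core on the other strand, 22 to 14 bases before its start. The first Upp1 start had TGAGTCA 45 to 39 bases before it, and the window of the second start, which overlaps it, held the same copy. Aprt held TGACTCA 111 to 105 bases before its start. The third Upp1 start and the windows of Tk1, Dck, Hprt, Uck2 and Cda held none of these letters, and no window was read for Xdh. A match describes the sequence and does not show that a factor binds there.

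Levels below are CPM on library totals scaled by the trimmed mean of M-values (TMM), given for replicates 1 to 5 in that order. In the IFNγ libraries of batches 2 and 3 the TMM factor was 0.635 and 0.764 in wild-type cells and 0.891 and 0.879 in knockout cells. It was 1.01 to 1.124 in all other libraries, and a low factor raises the CPM. Differences are log2 values ± SE from edgeR's quasi-likelihood test with batch as a term, and p-values were adjusted by Benjamini-Hochberg over all 13755 genes. A gene was called where the adjusted p was under 0.05, and "rose" and "fell" are used of called differences. In bulk RNA, fewer cells of a kind and less RNA per cell cannot be told apart.

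**Figure D1:**
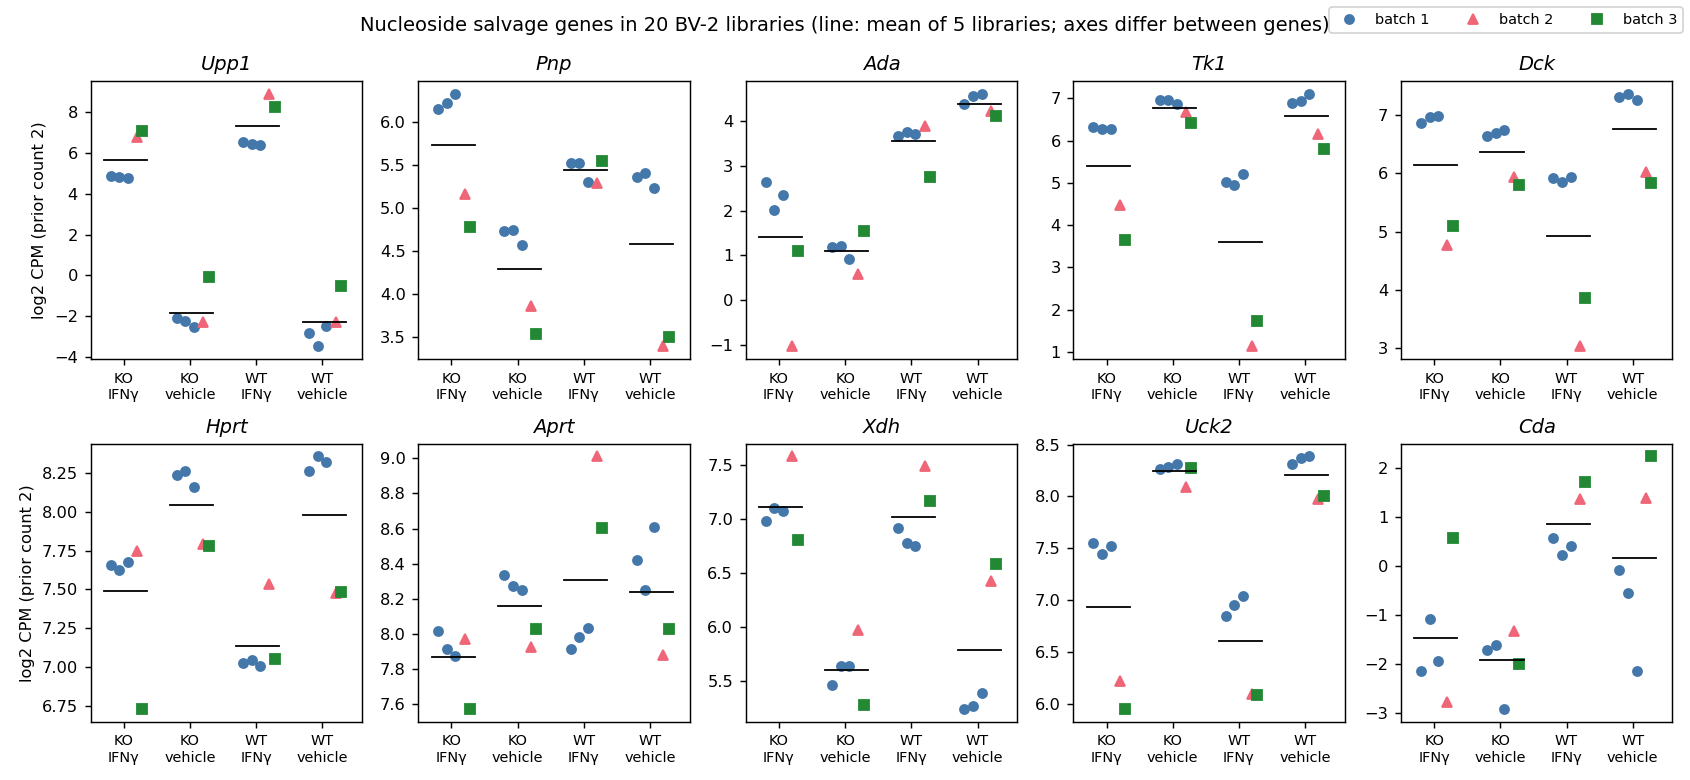
Levels of the 10 salvage genes in 20 BV-2 libraries, as log2 CPM with a prior count of 2, with 5 libraries per group. Points are libraries, marked by batch, and lines are group means. Upp1 separates the IFNγ groups from the vehicle groups, Ada separates knockout from wild-type cells, and Tk1 and Dck are lower in the IFNγ libraries of batches 2 and 3 than in those of batch 1.

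Upp1 encodes uridine phosphorylase 1, which splits uridine into uracil and ribose 1-phosphate. It stood at 29.6, 27.8, 27.6, 109.9 and 134 CPM in knockout cells with IFNγ, against 0.144, 0.120, 0.0861, 0.117 and 0.848 CPM in knockout cells with vehicle. In wild-type cells it stood at 94.7, 88.0, 84.1, 482 and 306 CPM with IFNγ, against 0.0538, 0, 0.0917, 0.115 and 0.616 CPM with vehicle. The IFNγ and vehicle groups did not overlap in either line, and within each IFNγ group the libraries of batches 2 and 3 were above those of batch 1. All vehicle libraries together held 33 Upp1 reads in knockout cells and 16 in wild-type cells. The wild-type vehicle library without a read allows up to 0.138 CPM, the level of 3 counts, a limit that covers counting error only.

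In knockout cells Upp1 rose 250-fold, by 7.96 ± 0.32 on the log2 scale (adjusted p = 1.5e-12, edgeR). Upp1 passed the abundance filter through its IFNγ libraries, so this p-value is not independent of the filter. In wild-type cells, where the gene was chosen, the difference was 10.24 ± 0.35, or 1213-fold. These folds rest on few vehicle reads: without replicate 4 or 5 of the vehicle libraries of the same line, Upp1 was 178-fold and 390.5-fold higher in knockout cells and 932-fold and 2180-fold higher in wild-type cells. Within batches 1, 2 and 3 the IFNγ difference was 7.12, 9.06 and 7.16 in knockout cells and 9.39, 11.20 and 8.76 in wild-type cells. Malat1 was also higher in the IFNγ libraries of batches 2 and 3, and its part in the spread of Upp1 was not tested.

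Under IFNγ, Upp1 stood 3.21-fold lower in knockout than in wild-type cells, a log2 difference of -1.68 ± 0.21. It is given as a description with no test, because the wild-type IFNγ libraries are those on which the gene was selected. The difference was -1.65, -2.13 and -1.19 within batches 1, 2 and 3, so that the knockout library was below the wild-type libraries of its batch each time. Across batches the ranges of the groups met: the knockout libraries of batches 2 and 3 were above the 3 wild-type libraries of batch 1. Under vehicle the log2 difference of knockout minus wild type was 0.60 ± 0.54 (adjusted p = 0.45, edgeR), at a depth where most libraries held under 5 reads. Its sign depended on single libraries, from -0.083 without replicate 5 of the knockout cells with vehicle to 1.48 without replicate 5 of the wild-type cells with vehicle.

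The 5 tested genes whose log2 CPM followed that of Upp1 most closely over the 20 libraries were Cd274, H2-T23, Ptgs2, Rnf19b and Gla, with Pearson r of 0.989, 0.987, 0.985, 0.981 and 0.981. The r is a description over libraries that share treatment, batch and depth. Cd274 encodes the immune checkpoint ligand PD-L1, H2-T23 a nonclassical MHC class I molecule, Ptgs2 the inducible cyclooxygenase, Rnf19b a ubiquitin ligase and Gla the lysosomal alpha-galactosidase A. Their log2 differences with IFNγ in knockout cells ran between Gla at 1.02 ± 0.09 and Cd274 at 5.63 ± 0.34, against 7.96 for Upp1. The choice by likeness to Upp1 fixes the direction of these differences, so no test is given.

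Pnp encodes purine nucleoside phosphorylase, which splits inosine and guanosine into base and ribose 1-phosphate. It stood at 71.1, 74.7, 80.7, 35.8 and 27.5 CPM in knockout cells with IFNγ, against 26.5, 26.9, 23.7, 14.45 and 11.5 CPM in knockout cells with vehicle. In wild-type cells it stood at 46.1, 46.1, 39.5, 39.1 and 46.8 CPM with IFNγ, against 41.2, 42.4, 37.7, 10.4 and 11.2 CPM with vehicle. The knockout IFNγ libraries were all above every knockout vehicle library, while the wild-type groups overlapped. The wild-type vehicle libraries of batches 2 and 3 lay far below all other wild-type libraries. Pnp rose in knockout cells by 1.45 ± 0.24 (adjusted p = 7.5e-05, edgeR), with 1.55, 1.30 and 1.25 within the 3 batches. In wild-type cells the difference was 0.87 ± 0.24 overall but 0.12, 1.90 and 2.05 within batches 1, 2 and 3. Pnp was not called between the lines under IFNγ (0.22 ± 0.23, adjusted p = 0.48, edgeR) or under vehicle (-0.36 ± 0.24, adjusted p = 0.28). In the IFNγ comparison its sign depended on the batch: 0.78, -0.13 and -0.76 in batches 1, 2 and 3. In GENCODE vM21, exons of Pnp share 718 bases with Gm49342 on the same strand, so reads there could have been counted for either gene.

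Ada encodes adenosine deaminase, which turns adenosine and deoxyadenosine into inosine and deoxyinosine, the step before Pnp. It stood at 6.12, 3.94, 5.00, 0.397 and 2.03 CPM in knockout cells with IFNγ, against 12.6, 13.4, 12.96, 14.7 and 6.62 CPM in wild-type cells with IFNγ. It stood at 2.20, 2.21, 1.81, 1.40 and 2.83 CPM in knockout cells with vehicle, against 20.9, 23.6, 24.4, 18.6 and 17.4 CPM in wild-type cells with vehicle. Every knockout library was below every wild-type library of the same treatment. Ada fell by 3.31 on the log2 scale in knockout against wild-type cells under vehicle (SE 0.38, adjusted p = 1.6e-06, edgeR), which is 9.90-fold lower. Under IFNγ it fell by 1.89 (SE 0.37, adjusted p = 0.00042, edgeR), or 3.69-fold. Within batches 1, 2 and 3 the difference was -3.42, -3.65 and -2.58 under vehicle and -1.38, -4.93 and -1.66 under IFNγ.

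The IFNγ response of Ada was not called in knockout cells (0.63 ± 0.37, adjusted p = 0.18, edgeR), where it was 1.23, -1.61 and -0.46 within the 3 batches. Without replicate 4 of the knockout cells with IFNγ, which held 7 Ada reads, it was 0.95 with an adjusted p of 0.00737 by edgeR. In wild-type cells the IFNγ difference was -0.79 ± 0.34, and it was negative within all 3 batches.

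Cda encodes cytidine deaminase, which turns cytidine into uridine, the substrate of Upp1. It was near the limit of detection in knockout cells, with 0.138, 0.387, 0.171, 0.0567 and 1.40 CPM with IFNγ and 0.216, 0.241, 0.0430, 0.311 and 0.162 CPM with vehicle. Wild-type cells had 1.40, 1.08, 1.24, 2.49 and 3.21 CPM with IFNγ and 0.860, 0.599, 0.138, 2.53 and 4.65 CPM with vehicle. These levels rest on 44 and 25 reads in the knockout groups and on 182 and 159 reads in the wild-type groups. The groups overlapped under each treatment, through replicate 5 of the knockout cells with IFNγ and replicate 3 of the wild-type cells with vehicle. Cda fell in knockout against wild-type cells by 2.36 on the log2 scale under IFNγ (SE 0.60, adjusted p = 0.0039, edgeR) and by 2.62 under vehicle (SE 0.64, adjusted p = 0.0043). Cda passed the abundance filter mainly through its wild-type libraries, so these p-values are not independent of the filter. The call under IFNγ was lost without a batch term (-2.15, adjusted p = 0.0517, edgeR). In batches 2 and 3 alone Cda was at -2.30 under IFNγ (adjusted p = 0.149, edgeR) and at -3.71 under vehicle (adjusted p = 0.0573), and neither was called. With IFNγ in knockout cells it was not called (0.75 ± 0.67, adjusted p = 0.38, edgeR).

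Tk1 encodes cytosolic thymidine kinase, which makes thymidine monophosphate and is made mainly in S phase. It stood at 80.5, 76.9, 77.2, 22.4 and 12.4 CPM in knockout cells with IFNγ, against 125, 123, 116.5, 101 and 85.3 CPM in knockout cells with vehicle. Wild-type cells had 32.1, 31.1, 37.0, 2.10 and 3.21 CPM with IFNγ, against 119, 122, 138, 70.7 and 55.3 CPM with vehicle. The IFNγ and vehicle groups did not overlap in either line, and within each batch the knockout IFNγ libraries were above the wild-type ones. Tk1 fell with IFNγ in knockout cells by 1.45 on the log2 scale (SE 0.39, adjusted p = 0.0051, edgeR). The difference was -0.64, -2.18 and -2.78 within batches 1, 2 and 3, and without a batch term it was not called (-1.03, adjusted p = 0.2). In wild-type cells the difference was -2.63 ± 0.40. Under IFNγ, Tk1 was 2.78-fold higher in knockout than in wild-type cells (1.47 ± 0.38, adjusted p = 0.0047, edgeR), with 1.23, 3.36 and 1.92 within the batches. Under vehicle it was not called (0.29 ± 0.37, adjusted p = 0.6, edgeR). Tk1 exons share 83 bases with Afmid on the opposite strand.

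Dck encodes deoxycytidine kinase, which phosphorylates deoxycytidine, deoxyadenosine and deoxyguanosine. It stood at 116, 125, 126, 27.2 and 34.1 CPM in knockout cells with IFNγ, against 99.35, 103.6, 107, 61.1 and 55.3 CPM in knockout cells with vehicle. Wild-type cells had 60.6, 57.5, 61.4, 8.10 and 14.5 CPM with IFNγ, against 158, 164.5, 152, 65.1 and 57.2 CPM with vehicle. In knockout cells the IFNγ libraries of batch 1 were all above the vehicle libraries and those of batches 2 and 3 all below them. Dck was not called with IFNγ in knockout cells (-0.26 ± 0.22, adjusted p = 0.34, edgeR), with 0.24, -1.17 and -0.70 within the batches. In wild-type cells the difference was -1.76 ± 0.22 and negative within each batch. Under IFNγ, Dck was 2.21-fold higher in knockout than in wild-type cells (1.14 ± 0.22, adjusted p = 0.00037, edgeR), with 1.03, 1.74 and 1.23 within batches 1, 2 and 3. Under vehicle the difference was -0.35 ± 0.22 (adjusted p = 0.24, edgeR).

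The calls of Tk1 and Dck between the lines under IFNγ were lost when batch was left out of the model, at 1.34 (adjusted p = 0.108) and 1.08 (adjusted p = 0.134) by edgeR. The summed level of 22 S phase genes, none of them a salvage gene, was 1453 to 3425 CPM in knockout cells with IFNγ and 3068 to 4224 CPM in knockout cells with vehicle. It was 1151 to 2156 CPM in wild-type cells with IFNγ and 1837 to 4182 CPM in wild-type cells with vehicle. Under IFNγ, 15 of these 22 genes were higher and 1 lower in knockout than in wild-type cells, with a median log2 difference of 0.85, against 20% higher, 19% lower and a median of 0.01 over all genes. E2f1, the S phase transcription factor, was among them at 1.14 ± 0.12 (adjusted p = 4.3e-07, edgeR). The part of S phase RNA in the Tk1 and Dck differences was not tested.

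Uck2 encodes uridine-cytidine kinase 2, which phosphorylates uridine and so draws on the same substrate as Upp1. It stood at 188, 174, 184, 74.8 and 61.8 CPM in knockout cells with IFNγ, against 308, 312, 318, 272 and 309.7 CPM in knockout cells with vehicle. Wild-type cells had 115, 124, 132, 68.3 and 68.0 CPM with IFNγ, against 317, 332, 334, 252 and 256 CPM with vehicle. The treatments did not overlap in either line. Uck2 fell with IFNγ in knockout cells by 1.29 on the log2 scale (SE 0.18, adjusted p = 1.6e-05, edgeR), and the difference was -0.78, -1.86 and -2.32 within the batches. In wild-type cells it was -1.61 ± 0.18. Neither genotype difference was called, at 0.38 ± 0.18 under IFNγ (adjusted p = 0.099, edgeR) and 0.06 ± 0.18 under vehicle (adjusted p = 0.85). In the IFNγ comparison the call depended on single libraries: without replicate 4 or 5 of the knockout cells with IFNγ, Uck2 was higher at 0.48 (adjusted p = 0.0404) and 0.54 (adjusted p = 0.00955).

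Hprt and Aprt encode the phosphoribosyltransferases that return hypoxanthine and guanine, and adenine, to nucleotides. Hprt ranged over 106 to 215 CPM in knockout cells with IFNγ and 219.6 to 307 CPM in knockout cells with vehicle, which did not overlap. It ranged over 129 to 185 CPM in wild-type cells with IFNγ and 178 to 327 CPM in wild-type cells with vehicle, which did. Hprt fell with IFNγ in knockout cells by 0.55 on the log2 scale (SE 0.17, adjusted p = 0.012, edgeR). Within batch 2 alone that difference was -0.04, and the call was lost without a batch term (adjusted p = 0.0654) or in batches 2 and 3 alone (adjusted p = 0.186). In wild-type cells the difference was -0.84 ± 0.17, with -1.28, 0.06 and -0.43 within the batches. Between the lines Hprt was not called, at 0.34 ± 0.17 under IFNγ (adjusted p = 0.12, edgeR) and 0.05 ± 0.17 under vehicle (adjusted p = 0.87). Under IFNγ the difference was 0.63, 0.22 and -0.32 within batches 1, 2 and 3. There Hprt was called higher on plain library totals (0.52, adjusted p = 0.0038, edgeR) and in batch 1 alone (0.65, adjusted p = 7.13e-13). It was also called without replicate 4 or 5 of the wild-type cells with IFNγ, or replicate 5 of the knockout cells with IFNγ. The p-value of batch 1 alone covers only the spread within that batch. The biological coefficient of variation there was 5.89%, against 24.2% over all libraries.

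Aprt ranged over 190.0 to 259 CPM in knockout cells with IFNγ and 243 to 322 CPM in knockout cells with vehicle. It ranged over 241 to 516 CPM in wild-type cells with IFNγ and 235 to 391 CPM in wild-type cells with vehicle. The 516 and 388 CPM of wild-type cells with IFNγ came from batches 2 and 3, and the batch 1 libraries stood at 241 to 262 CPM. Under IFNγ, Aprt was 1.41-fold lower in knockout than in wild-type cells (-0.50 ± 0.19, adjusted p = 0.046, edgeR). That call rested on batches 2 and 3, at -1.04 and -1.03, while batch 1 gave -0.04, and it was lost in 19 of 29 other settings. In those that leave out 1 library its adjusted p reached 0.258, without replicate 4 of the wild-type cells with IFNγ. Aprt was not called with IFNγ in knockout cells (-0.30 ± 0.19, adjusted p = 0.22, edgeR).

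Xdh encodes xanthine dehydrogenase, which oxidizes hypoxanthine and xanthine, the bases that follow from Pnp, to uric acid. It stood at 126, 137, 134, 191 and 112 CPM in knockout cells with IFNγ, against 44.2, 49.7, 49.9, 62.6 and 38.8 CPM in knockout cells with vehicle. In wild-type cells it stood at 121, 109.8, 108, 179 and 143 CPM with IFNγ, against 37.8, 38.4, 42.0, 86.0 and 95.9 CPM with vehicle. The treatments did not overlap in either line, and the 2 highest wild-type vehicle libraries were those of batches 2 and 3. Xdh rose with IFNγ in knockout cells by 1.504 ± 0.18 on the log2 scale (adjusted p = 3.2e-06, edgeR), with 1.47, 1.61 and 1.53 within the batches. In wild-type cells the difference was 1.18 ± 0.18, with 1.51, 1.06 and 0.58. The genotype differences were not called, at 0.10 ± 0.18 under IFNγ (adjusted p = 0.68, edgeR) and -0.22 ± 0.18 under vehicle (adjusted p = 0.41).

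**Figure D2:**
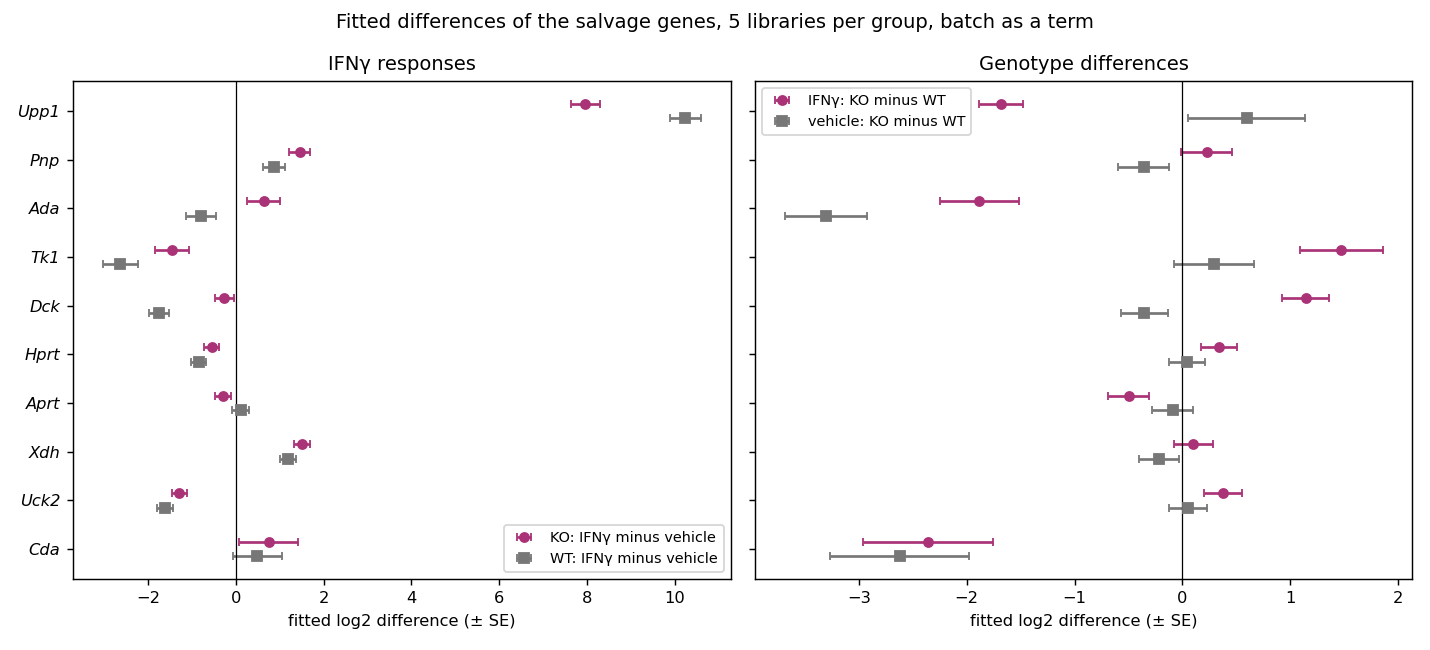
Fitted log2 differences of the 10 salvage genes with their SE, from 5 libraries per group. The left panel gives IFNγ minus vehicle in each line, where Upp1 stands at 7.96 in knockout and 10.24 in wild-type cells. The right panel gives knockout minus wild type under each treatment, where Ada and Cda lie below 0 under both and Tk1 and Dck lie above 0 under IFNγ.

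Counted together, 3 of the 10 salvage genes rose with IFNγ in knockout cells, Upp1, Pnp and Xdh, and 3 fell, Tk1, Hprt and Uck2. Upp1 passed the abundance filter through its IFNγ libraries and was chosen for its IFNγ rise in wild-type cells, so only Pnp and Xdh are read as higher. Of all genes tested, 21.4% rose and 21.8% fell there, so the shares were not far from the background with or without Upp1. The same 6 genes were those whose difference had 1 sign in all 3 batches. In wild-type cells 3 of the 10 were called higher, against 29% of all genes, and 4 lower, against 29.9%, and nothing is read from these counts because Upp1 was selected there. In knockout against wild-type cells under IFNγ, 2 were higher, Tk1 and Dck, against 20% of all genes, and Ada, Aprt and Cda were lower, against 19%. Upp1 was also lower there and is left out of that reading, because the wild-type IFNγ libraries selected it. Under vehicle 0 were higher, against 12.5% of all genes, and 2 lower, Ada and Cda, against 14.8%. Cda passed the abundance filter mainly through its wild-type libraries, so its calls between the lines are not independent of the filter. The median log2 difference of the 10 was 0.19 with IFNγ in knockout cells, against -0.02 over all genes. It was 0.16 for knockout against wild type under IFNγ and -0.15 under vehicle, against 0.01 and 0.03 over all genes. With plain library totals in place of TMM, the share of calls that were higher was 38.5% in place of 49.5% with IFNγ in knockout cells, 36.7% in place of 49.2% in wild-type cells, and 62.3% in place of 51.4% for knockout against wild type under IFNγ.

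The IFNγ response of the lines was compared as knockout minus wild type. Upp1 gave -2.28 ± 0.58, a value that contains the contrast on which it was selected and so has no test, and it was negative in each batch at -2.28, -2.14 and -1.60. Dck gave 1.49 ± 0.31 (adjusted p = 0.0067, edgeR), and 1.64, 1.82 and 1.28 within the batches. For each gene this comparison contains the wild-type IFNγ contrast, which is given with no test. For Dck that contrast was -1.76, against -0.26 in knockout cells. Without 1 library the Upp1 value ran from -3.16, without replicate 5 of the wild-type cells with vehicle, to -1.58, without replicate 5 of the knockout cells with vehicle. Of all genes 3.64% had a higher and 2.86% a lower response in knockout cells. Among the 10, Dck was called higher, and Upp1 is not counted. The Dck call was lost in 2 of 29 other settings, without a batch term (1.565, adjusted p = 0.365, edgeR) and in batches 2 and 3 alone (1.497, adjusted p = 0.164). Tk1 gave 1.18 ± 0.53 (adjusted p = 0.2, edgeR), with the same sign in each batch. The remaining 7 changed sign between batches.

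**Figure D3:**
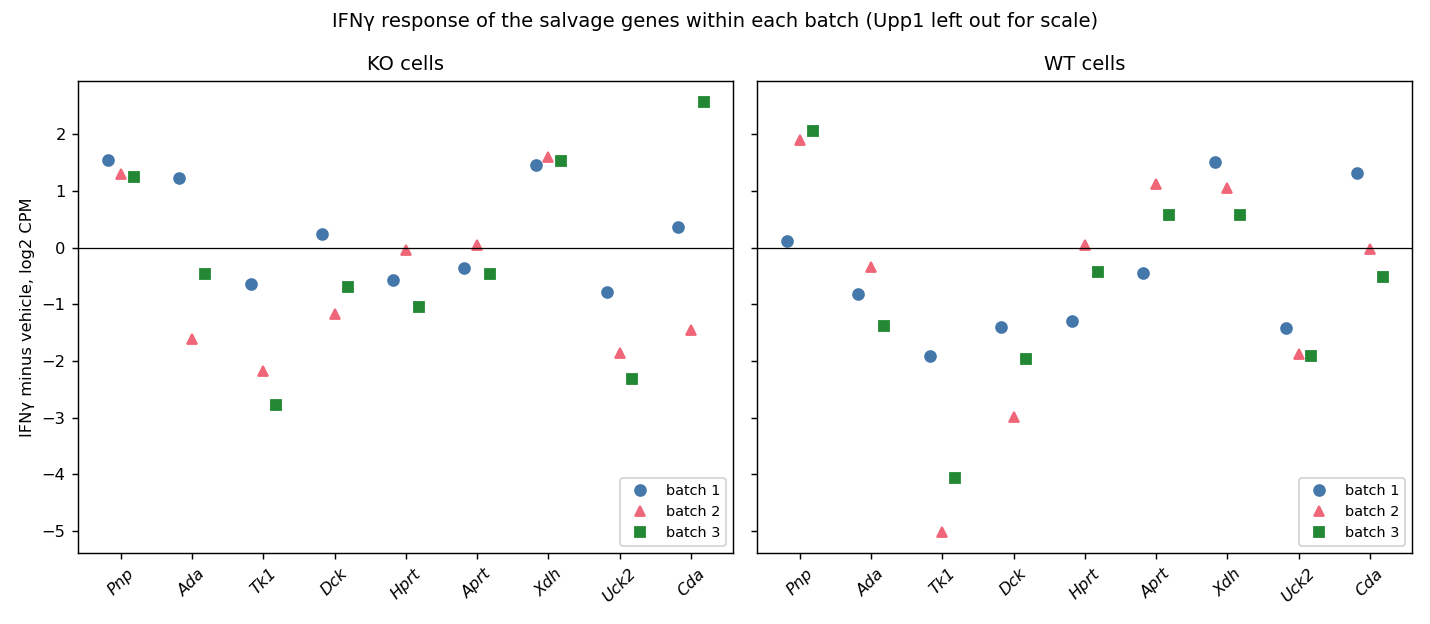
IFNγ minus vehicle in log2 CPM within each batch, for 9 salvage genes, with knockout cells left and wild-type cells right. Batch 1 points are means of 3 libraries per group, and those of batches 2 and 3 are single libraries. In knockout cells Pnp and Xdh lie above 0 and Tk1 and Uck2 below 0 in all 3 batches, while Ada and Dck change sign.

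To set genes beside each other, levels were divided by the union of all annotated exons of a gene, from 1035 bases for Cda to 9175 for Xdh. That union can be longer than the transcripts present and so lower a gene's value, which makes ranks between genes approximate. Per kilobase of exon, Hprt and Aprt had the highest group means of the 10 in all 4 groups. In knockout cells with IFNγ, Aprt averaged 146 ± 16.7 and Hprt 144 ± 34.6 CPM per kilobase (SD, n = 5), whose ranges overlapped. Upp1 averaged 33.6 ± 26.5 CPM per kilobase there, at 56.0 in batch 2 and 68.4 in batch 3. In batch 1 Upp1 averaged 14.46 CPM per kilobase and ranked 7 of the 10. Besides Hprt and Aprt, Uck2, Dck and Pnp were above it there, with means of 33.3, 32.3 and 18.97. The mean of Tk1 was also above that of Upp1, with overlapping ranges. In batches 2 and 3 Upp1 ranked 3, so its place among the 10 depended on the batch. In knockout cells with vehicle Upp1 had the lowest mean of the 10, at 0.134 ± 0.167 CPM per kilobase, next to Cda at 0.188 ± 0.097. Their ranges overlapped, and in batch 3 Upp1 was above Cda, at 0.433 and 0.156. In wild-type cells with IFNγ it averaged 107.5 ± 90.9 CPM per kilobase, and Hprt 110.0 ± 18.9. Upp1 was below Hprt in batch 1, with means of 45.3 and 101, and above it in batch 2, at 246 and 144, and in batch 3, at 156 and 103. With vehicle Upp1 was again the lowest of the 10, at 0.0894 ± 0.128.

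The neighbouring steps of nucleotide metabolism were read from gene lists written with earlier results of these libraries known. Beside their counts stand the shares of all genes, 21.4% higher and 21.8% lower with IFNγ in knockout cells and 20% higher and 19% lower in knockout against wild-type cells under IFNγ. Among 11 tested genes of other salvage steps, 3 rose and 3 fell with IFNγ in knockout cells, shares near those of all genes. On plain library totals 1 was higher and 3 lower, and in batches 2 and 3 alone 0 were higher and 3 lower. Cmpk2, a mitochondrial nucleotide kinase induced by interferon, rose by 1.36 ± 0.38 (adjusted p = 0.0075, edgeR), and Uckl1, a relative of Uck2, by 0.52 ± 0.11 (adjusted p = 0.00086). In batches 2 and 3 alone neither was called, with Cmpk2 at 2.21 (adjusted p = 0.0619, edgeR) and Uckl1 at 0.62 (adjusted p = 0.12). Cmpk2 also lost its call without a batch term (1.46, adjusted p = 0.0618, edgeR), and Uckl1 on plain library totals (0.37, adjusted p = 0.0738). Adk, adenosine kinase, which competes with Ada for adenosine, fell by 0.61 (SE 0.13, adjusted p = 0.00074), and Dtymk, thymidylate kinase, which acts after Tk1, fell by 0.96 (SE 0.13, adjusted p = 1.3e-05). Dtymk was not called without a batch term (-0.86, adjusted p = 0.06, edgeR). In wild-type cells 6 of the 11 were called higher and 3 lower, against 29% and 29.9% of all genes. Between the lines under IFNγ 1 was higher and 5 lower in knockout cells, among them Mtap, the phosphorylase of methylthioadenosine, at -0.62 ± 0.16 (adjusted p = 0.0039, edgeR). On plain library totals 1 was higher and 1 lower, and in batches 2 and 3 alone 0 and 1. Mtap lost its call on plain totals (-0.47, adjusted p = 0.0608, edgeR) and without a batch term (-0.52, adjusted p = 0.224). Upp2, the other uridine phosphorylase gene, was 2.83-fold higher in knockout than in wild-type cells under vehicle (1.502 ± 0.38, adjusted p = 0.0055, edgeR), at means of 1.405 and 0.494 CPM in these groups. That call was lost without a batch term (1.506, adjusted p = 0.0597, edgeR) and in batches 2 and 3 alone, where Upp2 was at 1.385 (adjusted p = 0.344, edgeR).

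Of 7 nucleoside carriers, 4 were tested. The concentrative carrier Slc28a2, which takes up purine nucleosides and uridine, rose with IFNγ in knockout cells by 1.23 ± 0.27 (adjusted p = 0.0012, edgeR), and the lysosomal carrier Slc29a3 rose by 0.95 ± 0.17 (adjusted p = 0.00016). The equilibrative carriers of the plasma membrane fell, Slc29a1 by 0.98 (SE 0.18, adjusted p = 0.00024) and Slc29a2 by 0.88 (SE 0.20, adjusted p = 0.0016). Slc29a2 was not called in batches 2 and 3 alone (-1.06, adjusted p = 0.0712, edgeR). Under IFNγ, 3 of the 4 were lower in knockout than in wild-type cells and 0 higher. Slc28a2 averaged 28.4 ± 15.1 CPM in knockout cells with IFNγ and 119 ± 130.4 CPM in wild-type cells with IFNγ (SD, n = 5), a difference of -1.82 ± 0.27 (adjusted p = 2.9e-05, edgeR). Slc29a3 averaged 51.1 ± 21.4 CPM and 143.7 ± 17.7 CPM in the same groups, a difference of -1.53 ± 0.17 (adjusted p = 6.9e-07). Under vehicle Slc29a3 was also lower in knockout than in wild-type cells, at -0.74, and at -1.13 to -0.53 in the other settings.

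Among 16 tested genes of nucleoside and nucleotide breakdown, 3 rose and 7 fell with IFNγ in knockout cells, against 21.4% and 21.8% of all genes. Gda, guanine deaminase, which feeds Xdh with xanthine, rose by 1.77 ± 0.29 (adjusted p = 8.1e-05, edgeR). That call was lost in batches 2 and 3 alone (1.04, adjusted p = 0.0557, edgeR). Gda was also 12.6-fold lower in knockout than in wild-type cells under vehicle, at -3.65 ± 0.30 (adjusted p = 1.8e-08), and 5.81-fold lower under IFNγ, at -2.54 ± 0.28 (adjusted p = 7.8e-07). Dpys, dihydropyrimidinase, a later step of uracil breakdown, rose with IFNγ in knockout cells by 1.56 ± 0.28 (adjusted p = 0.00022). Nt5c2, a cytosolic nucleotidase, fell by 0.70 (SE 0.10, adjusted p = 2.4e-05). The Nt5c2 call was lost without a batch term (-0.68, adjusted p = 0.0594, edgeR) and in batches 2 and 3 alone (-0.81, adjusted p = 0.0567).

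The de novo routes moved mostly one way. Of 11 de novo purine genes 10 fell and 1 rose with IFNγ in knockout cells, with a median of -1.03, and 10 of 11 were lower in wild-type cells, with a median of -1.43, against -0.02 and 0.01 over all genes. Of all genes, 21.8% fell in knockout cells and 29.9% were lower in wild-type cells. Atic, which completes the purine ring, fell in knockout cells by 1.20 (SE 0.17, adjusted p = 1.2e-05, edgeR). The gene that rose was Impdh1, an IMP dehydrogenase on the way to GMP, at 0.70 ± 0.17 (adjusted p = 0.0026). Of 5 de novo pyrimidine genes 4 fell in knockout cells and 4 were lower in wild-type cells. Cad, which carries out the first steps of the route, fell by 1.88 (SE 0.22, adjusted p = 2.1e-06), and Dhodh by 1.39 (SE 0.28, adjusted p = 0.00056). Of 6 genes for deoxynucleotides, 5 fell in knockout cells, among them Rrm1, a subunit of ribonucleotide reductase, by 0.74 (SE 0.15, adjusted p = 0.00056). With size factors by relative log expression or with plain library totals, 3 of these 6 were lower, and Rrm1 was not called without a batch term (-0.57, adjusted p = 0.308, edgeR). The S phase sums given above moved with these lists, and their part was not tested.

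Of 11 genes that handle ribose phosphates, 5 fell and 1 rose with IFNγ in knockout cells, and 6 were higher and 0 lower in knockout than in wild-type cells under IFNγ, where batches 2 and 3 alone gave 1 and 0. Prps2, a synthetase of the activated ribose that Hprt and Aprt use, fell in knockout cells by 1.61 (SE 0.27, adjusted p = 0.00013, edgeR). Under IFNγ it was 2.46-fold higher in knockout than in wild-type cells (1.30 ± 0.27, adjusted p = 0.00089), a call lost in batches 2 and 3 alone, at 0.49 (adjusted p = 0.395, edgeR). Pgm2, which converts ribose 1-phosphate, the product of Upp1 and Pnp, to ribose 5-phosphate, was at -0.37 ± 0.14 with IFNγ in knockout cells (adjusted p = 0.037, edgeR). It was named after its values were seen, for its place after Upp1.

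**Figure D4:**
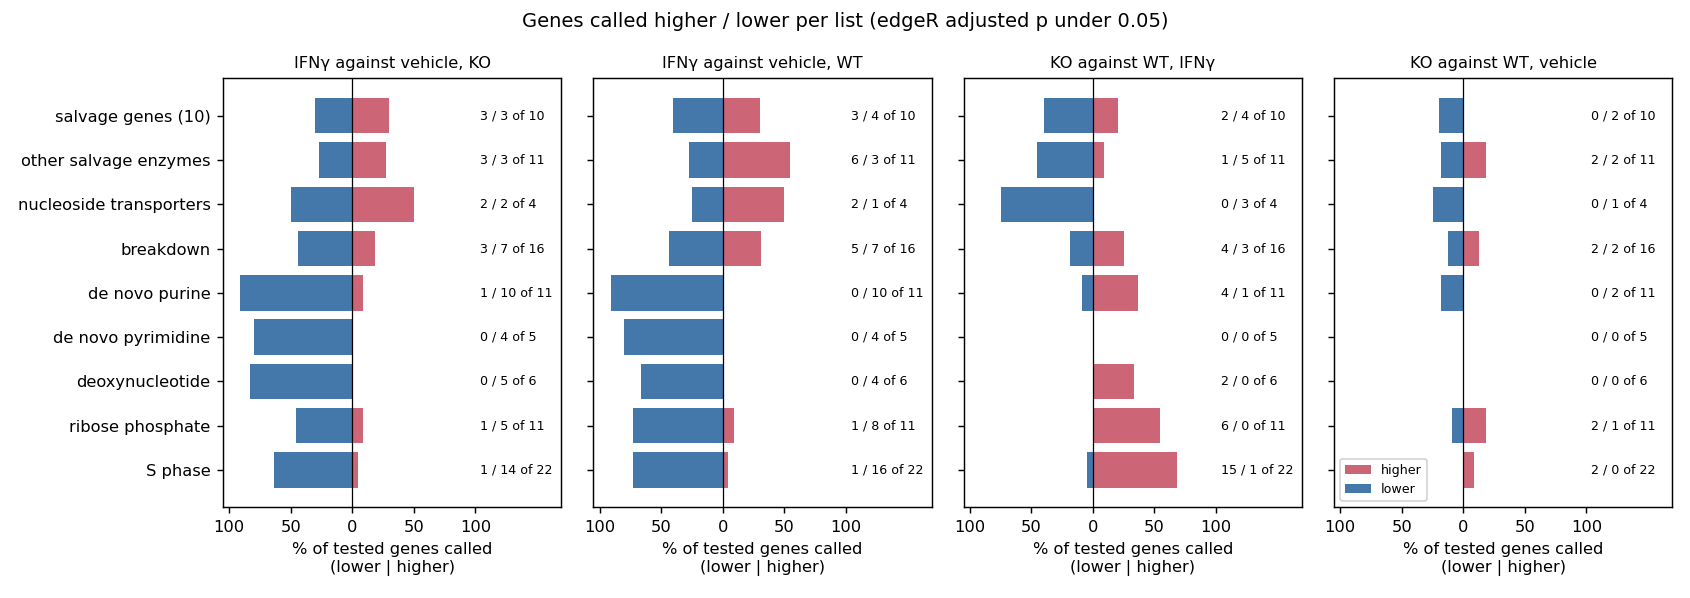
Share of the tested genes of each list called higher (right of 0) or lower (left of 0) by edgeR at an adjusted p under 0.05, in percent, for the 4 comparisons. The numbers beside the bars are genes higher and lower of those tested. The de novo purine list has 10 of 11 genes lower with IFNγ in both lines, while the salvage list is split at 3 higher and 3 lower in knockout cells. Upp1, selected on its IFNγ rise in wild-type cells, is counted in the salvage list.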

How the data were processed

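The deposited table held raw counts of reads by gene in 20 poly(A)-selected libraries. Per the submitters' processing notes, GRCm39 was the build, and FastQC, Trim Galore, STAR and DESeq2 were used. Which tool counted reads, with what annotation and strand setting, was not stated in the sources used, and reads of overlapping genes could fall to either. All count columns matched a library (0 did not). GENCODE vM21 gave symbols to 51948 of 56941 Ensembl IDs (91.2%), and exon lengths, overlaps and promoter sequences rest on GRCm38. No protein sequence was used.

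Counts were tested in edgeR 4.0.16 (R 4.3.3): TMM scaling, filterByExpr, and a robust quasi-likelihood model with group and batch as terms and 14 residual degrees of freedom, adjusted by Benjamini-Hochberg over 13755 genes, with a threshold of 0.05. The code was run on counts simulated without a batch effect, so that run does not bear on the batches here. Levels are CPM on TMM-scaled totals, within-batch differences are means of log2 CPM with a prior count of 2, and Malat1 is given on plain totals. Replicates are labelled as biological, with no word on separate cultures; p-values cover only how far these libraries spread, which may be technical. The biological coefficient of variation was 24.2% over all libraries and 5.89% in batch 1. Replicate numbers were not taken as pairs: deviations of same-numbered libraries of batch 1 correlated at -0.04 to 0.04. None were copies: in a chi-squared test of counts, replicates of batch 1 gave 3.69 to 14.4 per degree of freedom, and replicates of different batches 15.2 to 397.

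The members and all gene lists were chosen with earlier results of these data known. The text names the 10 members, up to 2 called genes each way with the smallest p per list and comparison, the 5 genes most alike to Upp1, and Rgs10 and Malat1 as checks. Of the genes this rule gives, those most tied to the members' steps were kept after their values were seen. Alternatives were RLE scaling, plain totals, no filter beyond 1 read, DESeq2 1.42.0, limma-voom (limma 3.58.1), no batch term, a replicate block, batch 1 alone, batches 2 and 3 alone and leaving out each library.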

Additional observations from a re-analysis of the deposited data

Results flagged for a closer look

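In 5 of the 40 sets of 5 replicates formed by 10 genes and 4 groups, 1 library lay farther from its neighbours on the log2 CPM scale than Dixon's critical value of 0.71 allows, where chance gives about 1 in 20. On plain CPM the same 5 did, together with Upp1 in replicate 5 of the wild-type cells with vehicle, at 0.616 CPM, and Cda in replicate 5 of the knockout cells with IFNγ, at 1.40 CPM, making 7 of the 40. Upp1 stood at 0.848 CPM in replicate 5 of the knockout cells with vehicle, against 0.0861 to 0.144 CPM in the other 4. Ada stood at 6.62 CPM in replicate 5 of the wild-type cells with IFNγ, against 12.6 to 14.7 CPM in the others. Hprt stood at 106 CPM in replicate 5 of the knockout cells with IFNγ, where the others lay at 198 to 215 CPM. In replicate 4 of the wild-type cells with IFNγ Hprt stood at 185 CPM, above the 129 to 133 CPM of the others. That library held 2377 Hprt counts of 20231230, at a TMM factor of 0.635. Replicate 1 of the same group held 3060 of 22545863, at a factor of 1.043. The part of the scaling in this value was not tested. Uck2 stood at 272 CPM in replicate 4 of the knockout cells with vehicle, below the 308 to 318 CPM of the others. All 5 libraries are from batch 2 or 3, which hold 1 library per group. The share of 1 in 20 holds for replicates of 1 batch, while each set here mixes batches.

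The IFNγ response differed between the lines for Dck, by 1.49 in log2, knockout minus wild type (adjusted p = 0.0067, edgeR). That difference contains the wild-type IFNγ contrast, which is given with no test. For Upp1 the difference of responses was -2.28, given with no test because it contains the contrast on which Upp1 was selected.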

How the results depend on the processing

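Of 23 calls among the 10 genes and 5 comparisons, 12 held in all 29 other settings, and of 27 results without a call, 9 gained none in any. Among the 23 are the 7 of the wild-type IFNγ comparison, which is given above with no test. The calls of Upp1 in the other comparisons that use the wild-type IFNγ libraries are among them too. The 12 are therefore no measure of how firm the tested calls are. Of 85 results of other genes, 49 kept their direction and side of the threshold, 36 lost a call in some setting and 0 turned direction. Not all of these genes are named in the text, and Pgm2 is not among them. The 85 include wild-type IFNγ differences and the genes most alike to Upp1, whose direction that choice fixed. They are therefore no measure of how firm the named results are. The number of genes called moved by over 1.5 times as follows, and the cause was not tested. With IFNγ in knockout cells 3897 genes were called without a batch term, in place of 5937, and in wild-type cells 5101 in batches 2 and 3 alone, in place of 8101. For knockout against wild type under IFNγ, 9580 were called in batch 1 alone and 1920 in batches 2 and 3, in place of 5363. Without a batch term 2 of the 10 genes were called there, in place of 6, with Upp1 counted. Under vehicle the count was 2318 without a batch term, 8072 in batch 1 and 847 in batches 2 and 3, in place of 3753, and 7 and 1 of the 10 genes were called in batch 1 and in batches 2 and 3. For the difference of responses, 894 genes were called, against 541 on plain totals, 1480 by DESeq2, 138 without a batch term, 7096 in batch 1, 123 in batches 2 and 3 and 542 to 1448 without 1 library, the highest without replicate 4 of the knockout cells with IFNγ. The replicate block in place of batch gave 530 there and ended the call of Aprt between the lines under IFNγ (adjusted p = 0.0677, edgeR). For the difference of responses 2 of the 10 genes were called, with Upp1 counted although this contrast contains the one that selected it. The count was 4 with no filter, where 1290 of all genes were called, 0 without a batch term and 7 in batch 1. It was 0 in batches 2 and 3 and 1 to 3 without 1 library.

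Directions that turned, in log2, were these. With IFNγ in knockout cells Ada was -0.85 in batches 2 and 3, and Dck 0.0067 without a batch term and 0.27 in batch 1. In wild-type cells Aprt was -0.16 on plain totals, -0.47 in batch 1 and -0.13 to 0.22 without 1 library, and Cda -0.26 in batches 2 and 3. Between the lines under IFNγ, Pnp, Hprt, Xdh and Uck2 were -0.47, -0.034, -0.14 and -0.016 in batches 2 and 3. Under vehicle Pnp and Aprt were 0.26 and 0.022 in batches 2 and 3, and Tk1, Hprt, Xdh and Uck2 -0.063, -0.10, 0.27 and -0.078 in batch 1. Without 1 library the ranges under vehicle were -0.083 to 1.48 for Upp1, -0.039 to 0.44 for Tk1, -0.089 to 0.12 for Hprt, -0.21 to 0.012 for Aprt, -0.32 to 0.044 for Xdh and -0.11 to 0.12 for Uck2. In the difference of responses Pnp, Ada, Hprt and Uck2 were -0.73, -0.15, -0.34 and -0.21 in batches 2 and 3, Aprt, Xdh and Cda 0.14, -0.011 and -0.75 in batch 1, and Cda -0.25 to 0.67 without 1 library. Plain totals moved the median of all genes by -0.16 and -0.21 with IFNγ in knockout and wild-type cells. Counts limit Upp1 under vehicle and Cda, which rest on 16 to 182 reads per group.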

Other observations

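Of the other genes of nucleotide metabolism, a few had an IFNγ response that differed between the lines by edgeR, given as knockout minus wild type in log2. The nucleoside carriers Slc28a2 (-1.90 ± 0.38, adjusted p = 0.0057) and Slc29a3 (-0.79 ± 0.23, adjusted p = 0.046) were on the negative side, and the uridine-cytidine kinase gene Uck1 gave -0.92 ± 0.19 (adjusted p = 0.0057). Adk, adenosine kinase, gave 0.65 ± 0.18 (adjusted p = 0.035) and Rrm1, of ribonucleotide reductase, 0.71 ± 0.21 (adjusted p = 0.049). The calls of Slc29a3, Adk and Rrm1 were lost in 20, 18 and 19 of 29 other settings, and in batches 2 and 3 alone these genes were at -0.15 (adjusted p = 0.938, edgeR), 0.13 (adjusted p = 0.935) and 0.26 (adjusted p = 0.837). Slc28a2 lost its call without a batch term (-2.15, adjusted p = 0.111, edgeR) and in batches 2 and 3 alone (-2.34, adjusted p = 0.206), and Uck1 in batches 2 and 3 alone (-1.08, adjusted p = 0.23). By list, 1 of 11 other salvage genes had a higher and 1 a lower response, 0 and 2 of 4 carriers, 1 and 0 of 6 deoxynucleotide genes, 0 and 1 of 16 breakdown genes, and 0 of 11 de novo purine, 0 of 5 de novo pyrimidine and 0 of 11 ribose phosphate genes were called either way. Over all genes these shares were 3.64% and 2.86%.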
